A study of Mus musculus with 24 samples.

Results

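The 10 genes described here encode cytokines of the interleukin 6 family (Il6, Il11, Lif and Osm), their receptor chains (Il6st, Il6ra, Il11ra1, Lifr and Osmr) and the feedback inhibitor Socs3. They were found by symbol in the deposited table of normalized counts, and all 10 were present among its 17270 genes. The family was chosen by its measured values: the large differences of its cytokines in the ipsilateral hemisphere 24 h after stroke were known when the list was drawn up. For these 10 genes, every comparison that holds those libraries is therefore given as a description without a p-value, and tests are given for the comparisons that do not hold them. Adjusted p-values in those comparisons are given for genes of other lists, which are no members. These lists were also drawn up with earlier results of the data known. Their p-values and counts of calls are therefore descriptions and no independent support.

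Brain microvessels came from male C57BL/6J mice aged 10 to 12 weeks. The middle cerebral artery was occluded for 60 minutes with a filament (tMCAO, transient middle cerebral artery occlusion), or the filament was withdrawn at once (sham), and the ipsilateral and the contralateral hemisphere were taken 24 h or 7 days later. Each of the 8 groups (surgery by hemisphere by time) held 3 libraries, and each library was made from 3 pooled hemispheres of perfused brains, from which the meninges had been peeled. The labels name no altered allele, and the sham groups shared with the tMCAO groups the surgery and the insertion of the filament. The replicates are separate pools, so p-values measure the spread between pools and not between single mice. Samples that the authors removed as outliers are not analysed here.

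Cytokines of this family signal through receptors that share the chain gp130, the product of Il6st. IL-6 and IL-11 first bind chains of their own (Il6ra, Il11ra1), whereas LIF and oncostatin M bring gp130 together with Lifr or Osmr. Ligand binding activates Janus kinases and the transcription factor STAT3, and STAT3 raises Socs3, whose product blocks the receptor complex. In the brain the family is known from injury responses: LIF acts on neural cells, and IL-6 is a classic acute phase inducer made by endothelial, immune and glial cells.

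The windows around the annotated starts of Il6, Il11, Lif and Socs3 are shown for the 3 cytokines with the largest differences and for the feedback inhibitor. RefSeq (build GRCm38.p6) gave a window of 300 bases, running from 250 bases before the start site, for 9 of the 10 members, in 12 windows. Capitals mark matches to any of 4 motifs searched on both strands: the AP-1 motif TGANTCA, the STAT motif TTCNNNGAA, a short form of the NF-kappaB motif, GGNNTTTCC and the cyclic AMP response element TGACGTCA. No match overlapped another in these windows. The sequences are given from 5′ to 3′ on the gene's strand.
Il6: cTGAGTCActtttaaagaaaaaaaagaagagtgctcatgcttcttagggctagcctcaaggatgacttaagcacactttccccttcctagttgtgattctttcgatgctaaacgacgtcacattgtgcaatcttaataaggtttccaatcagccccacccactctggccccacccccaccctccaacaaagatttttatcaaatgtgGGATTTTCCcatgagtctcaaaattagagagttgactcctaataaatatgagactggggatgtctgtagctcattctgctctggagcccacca
Il11: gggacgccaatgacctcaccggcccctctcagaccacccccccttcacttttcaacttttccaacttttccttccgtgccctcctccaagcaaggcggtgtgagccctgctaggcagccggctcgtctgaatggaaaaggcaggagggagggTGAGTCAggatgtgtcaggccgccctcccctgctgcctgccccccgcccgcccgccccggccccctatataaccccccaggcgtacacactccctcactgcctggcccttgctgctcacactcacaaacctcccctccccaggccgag
Lif: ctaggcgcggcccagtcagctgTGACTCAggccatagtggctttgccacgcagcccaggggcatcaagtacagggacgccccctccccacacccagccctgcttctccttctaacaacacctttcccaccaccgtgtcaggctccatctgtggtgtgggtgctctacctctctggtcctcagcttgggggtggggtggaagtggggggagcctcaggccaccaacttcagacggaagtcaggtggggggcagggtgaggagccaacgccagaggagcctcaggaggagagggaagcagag
Socs3: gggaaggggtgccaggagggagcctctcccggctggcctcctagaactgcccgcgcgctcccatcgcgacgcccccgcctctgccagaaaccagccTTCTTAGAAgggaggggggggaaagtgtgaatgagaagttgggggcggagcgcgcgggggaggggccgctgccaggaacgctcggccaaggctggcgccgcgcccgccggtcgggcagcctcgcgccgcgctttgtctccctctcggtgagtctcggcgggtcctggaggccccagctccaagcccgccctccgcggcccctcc
The Il6 window (chr5:30012864-30013163, plus strand) held the AP-1 motif at -249 to -243 and the NF-kappaB motif at -43 to -35, the start site being 0. Il11 had 2 windows on the minus strand. The one shown (chr7:4778092-4778391) held the AP-1 motif at -98 to -92, and the one at the gene's 5′ end in the deposited table (chr7:4782808-4783107) held no match to the 4 motifs. The Lif window (chr11:4257318-4257617, plus strand) held the AP-1 motif at -228 to -222. The Socs3 window (chr11:117969317-117969616, minus strand) held the STAT motif at -154 to -146, counted from the RefSeq start. This window lies wholly upstream of the gene's 5′ end in the deposited table (117969186), so the start sites of the sources differ. Among the other members, Osmr alone had a match, the AP-1 motif at 3 to 9. Of all 32851 promoter windows, 7.81% held the AP-1 motif, 8.30% the STAT motif, 5.82% the NF-kappaB motif and 1.79% the cyclic AMP response element. A match is a description of the letters and no evidence of binding.

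The deposited values, called normalized counts below, are gene counts scaled by DESeq2 to the depth of each library and rounded. Their totals lay between 15924780 and 18787932 per library. Log2 values correlated between replicates of a group at 0.967 to 0.988 (Pearson's r across genes). A gene was called when limma gave a Benjamini-Hochberg adjusted p under 0.05 over the 15982 genes tested and a change above 1.5-fold, after 1 had been added to each value. The 7 endothelial markers were detected in every library and summed to between 231056 and 338052 normalized counts. Mural markers summed to between 77836 and 182362, neuron markers to between 2113 and 13118 and microglia markers to between 2276 and 5538. Other cell types were carried along in larger and variable amounts. Oligodendrocyte markers summed to between 18370 and 97711, astrocyte markers to between 8734 and 43933 and choroid plexus markers to between 649 and 74083. The third sham pool of 7 days stood apart among the members in both hemispheres, with the highest Osmr, Il6ra and Socs3 of its groups, and several values that rest on it are also given without it.

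In the 21 libraries other than the ipsilateral ones of 24 h after tMCAO, the highest values were 71 normalized counts for Il11, 63 for Il6, 63 for Lif and 19 for Osm. In the ipsilateral hemisphere 24 h after tMCAO, Osm was also low, at 28 to 45 normalized counts. Il11, a cytokine known from megakaryocyte and stromal biology, had 3160, 3280 and 1977 normalized counts there, against 9, 30 and 7 in the ipsilateral hemispheres of sham mice. Its log2 fold change was 7.66 ± 0.59 (SE, 3 against 3 libraries). Il6 had 780, 1070 and 468 normalized counts against 2, 8 and 31 in sham, a log2 fold change of 6.26 ± 1.09. Every library after tMCAO lay above every sham library for both genes.

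Lif, known for its action on neural and stem cells, had 755, 559 and 324 normalized counts in the ipsilateral tMCAO libraries of 24 h and 0, 7 and 16 in the matching sham libraries. Its log2 fold change was 6.65 ± 1.04, a value that depends on the 1 added before the logarithm because a sham library is listed at 0. Osm, a product mainly of blood leukocytes, had 35, 28 and 45 normalized counts against 3, 5 and 16. Its log2 fold change of 2.29 ± 0.75 was the smallest of the 4 cytokines, and its groups did not overlap either. In pooled tissue such as this, fewer cells of a type and less RNA per cell cannot be told apart.

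**Figure D1:**
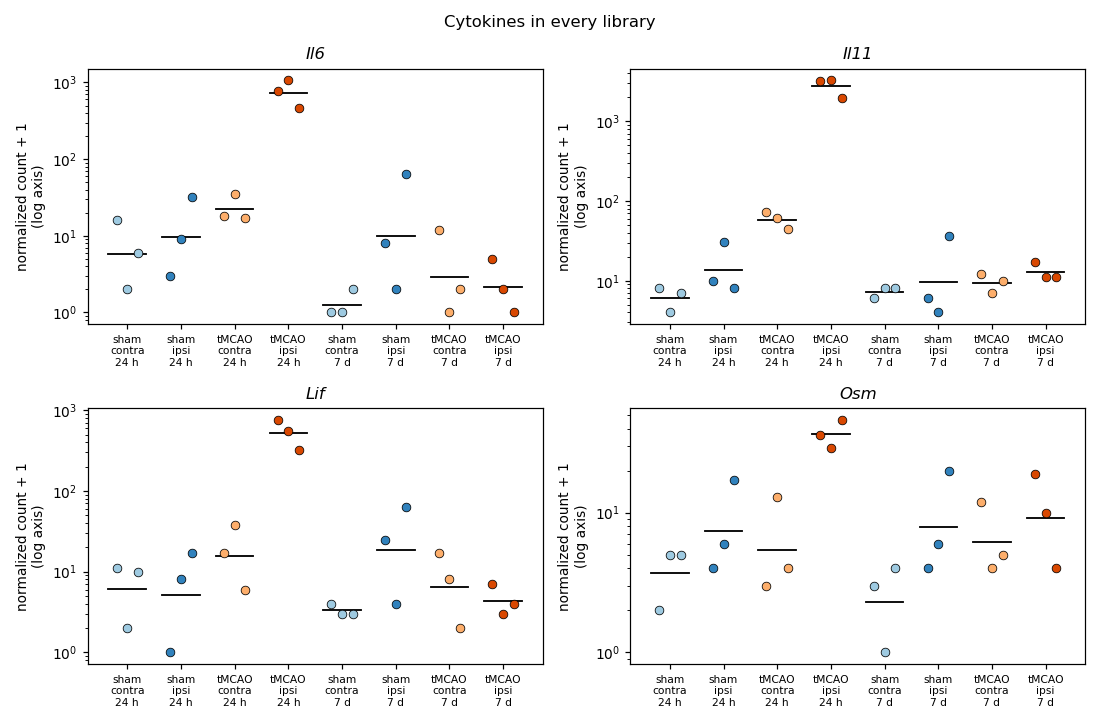
Normalized counts plus 1 of the 4 cytokines in all 24 libraries (log axis), by surgery, hemisphere and time; points are libraries in the order of their replicate numbers and bars are geometric means. The 3 ipsilateral libraries of 24 h after tMCAO lie above the other 21 libraries for each cytokine.

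Per kilobase of exon sequence the 4 cytokines were unequal at that point. Il11 stood at 1348 ± 346 (SD, n = 3) normalized counts per kilobase, Il6 at 318 ± 124, Lif at 126 ± 49.6 and Osm at 15.8 ± 3.76, and the libraries of neighbours in this order did not overlap. Of the 4 genes' summed level per kilobase, Il11 made up 74.9%, 73% and 76.8% in the 3 libraries, Il6 15.8%, 20.4% and 15.6%, Lif 8.56%, 5.96% and 6.02% and Osm 0.759%, 0.571% and 1.6%. The sums were 2029, 2158 and 1237 normalized counts per kilobase, and the library with the lowest sum had the highest share of Osm. The Il11 level overlapped that of the shared receptor gene Il6st in the same libraries (1011 ± 103 per kilobase).

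Among the receptor genes, Lifr was lower in the ipsilateral hemisphere 24 h after tMCAO, with 1097, 1055 and 1412 normalized counts against 2253, 1534 and 1862 in sham. The groups did not overlap, and the log2 fold change was -0.66 ± 0.20 (SE). Il6st, the gene of gp130, had 9940, 11580 and 12133 normalized counts against 7800, 8927 and 9033, a log2 fold change of 0.38 ± 0.13 that lay below the 1.5-fold limit. Il11ra1 had 784, 646 and 792 normalized counts against 859, 1085 and 838 (log2 fold change -0.32 ± 0.16). Neither gene overlapped between the groups, and neither was called; Il6st passed once the limit on the fold change was dropped.

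Il6ra and Osmr overlapped between tMCAO and sham at this time point. The log2 fold change of Il6ra, the chain that binds IL-6, was -0.25 ± 0.40, and that of Osmr, the oncostatin M chain, was -0.13 ± 0.45. Socs3 had 4013, 4526 and 2989 normalized counts against 739, 1669 and 2882, a log2 fold change of 1.31 ± 0.69. All 3 values exceeded those of sham, the lowest by a small margin over the third sham library. Without that sham library the log2 fold change of Socs3 was 1.77, and without the first it was 0.79.

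By the rule for calls, 5 of 10 members passed in the ipsilateral hemisphere at 24 h against sham: 4 higher (Il6, Il11, Lif, Osm) and 1 lower (Lifr). Over all genes tested, 18.3% were called in that comparison, 10% higher and 8.23% lower, and after centring each library on its median the called genes were 1331 higher and 1707 lower instead of 1603 higher and 1316 lower. The groups did not overlap for 8 members, 6 higher and 2 lower, where 49% of all genes did not overlap in either direction. The members were selected on these values, so nothing is read from the counts. The call for Osm was lost without sham replicate 1 (log2 fold change 1.85), sham replicate 2 (2.14), tMCAO replicate 1 (2.30) or tMCAO replicate 3 (2.12). The call for Lifr was lost without sham replicate 1 (-0.52), tMCAO replicate 1 (-0.61) or tMCAO replicate 2 (-0.58).

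The same tMCAO libraries also stood apart from the contralateral hemispheres. Against these, 5 of 10 members passed at 24 h (Il6, Il11, Lif and Osm higher, Lifr lower), where 13.7% of all genes did. The log2 differences were 5.57 ± 0.59 for Il11, 5.05 ± 1.09 for Il6, 5.04 ± 1.04 for Lif and 2.76 ± 0.75 for Osm, with -0.67 ± 0.20 for Lifr. Socs3 differed by 1.71 ± 0.69 and did not pass. It passed with the replicate block, with only the compared groups in the fit and without contralateral replicate 2 (2.30). Lifr was not called without contralateral replicate 3 (-0.55), ipsilateral replicate 1 (-0.62) or ipsilateral replicate 2 (-0.59), nor was Osm without contralateral replicate 1 (2.33). This comparison shares its 3 ipsilateral libraries with the one against sham, so the values are not independent of each other. The members were selected on those libraries, so the calls are descriptions and nothing is read from them.

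From 24 h to 7 days the ipsilateral tMCAO libraries lost the high cytokine values. Il11 had 16, 10 and 10 normalized counts at 7 days, Il6 had 4, 1 and 0, Lif had 6, 2 and 3 and Osm had 18, 9 and 3. The log2 differences (7 days minus 24 h) were -7.75 ± 0.59 for Il11, -8.41 ± 1.09 for Il6, -6.88 ± 1.04 for Lif and -1.99 ± 0.75 for Osm. Lifr went from 1055 to 1412 normalized counts back to 1729, 1729 and 2359, a log2 difference of 0.70 ± 0.20. In all, 4 of 10 members were called between the time points (Il6, Il11 and Lif lower, Lifr higher), with 12.2% of all genes called, and these counts again include the libraries on which the members were selected. Lifr was not called without replicate 1 (0.65) or 2 (0.62) of 24 h or replicate 3 of 7 days (0.55), and Osm was called without replicate 1 of 7 days (-2.52). Socs3, at -0.98 ± 0.69, was called lower at 7 days with only the compared groups in the fit. Nothing is read from these calls.

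The comparison of the contralateral hemispheres at 24 h holds none of the ipsilateral libraries by which the members were selected. Il11 had the largest log2 fold change of the members there, but it was not called. It had 71, 60 and 43 normalized counts in contralateral hemispheres after tMCAO and 7, 3 and 6 after sham, so the groups were clearly separate. The log2 fold change was 3.25 ± 0.59, with a 95% interval of 2.02 to 4.48. Il11 had the lowest unadjusted p of all 15982 genes in this comparison (2.2e-05), yet its adjusted p by limma was 0.352, and the result fails the correction. Over 13 alternatives the log2 fold change ranged from 2.95 to 3.45 and the adjusted p from 0.258 to 1.

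Il6 also did not overlap in the contralateral hemispheres, with 17, 34 and 16 normalized counts against 15, 1 and 5 (log2 fold change 1.93 ± 1.09, adjusted p 1 by limma). These 2 of 10 members were without overlap, where 8.2% of all genes were. None of the 10 members was called by limma and 1 had an unadjusted p under 0.05. Over all genes, 0% were called and 405 had an unadjusted p under 0.05. Lif (16, 37 and 5 against 10, 1 and 9) and Osm (2, 12 and 3 against 1, 4 and 4) overlapped between the groups.

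The contralateral Il11 level 24 h after tMCAO was a small share of the ipsilateral one. Set side by side by replicate number, which the labels do not tie to the same mice, the contralateral library held 2.25%, 1.83% and 2.18% of the ipsilateral Il11 value, while for Il6 it held 2.18%, 3.18% and 3.42% and for Lif 2.12%, 6.62% and 1.54%. Over all 12 pairs of the same number, deviations of Il11 from the group means correlated at r = -0.09 between the hemispheres. Outside the pairs of 24 h after tMCAO, Il11 had at most 35 normalized counts. This r therefore rests mostly on low values and does not describe the pairs of 24 h after tMCAO. From 24 h to 7 days the contralateral Il11 values fell to 11, 6 and 9 normalized counts. The log2 difference of -2.62 ± 0.59 did not pass the correction (adjusted p 0.107 by limma), and neither did that of Il6 (-2.93 ± 1.09, adjusted p 0.194). By limma 0 of 10 members were called between the time points in this hemisphere and 2 had an unadjusted p under 0.05. The share of all genes called was also 0%, with 2637 at an unadjusted p under 0.05.

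**Figure D2:**
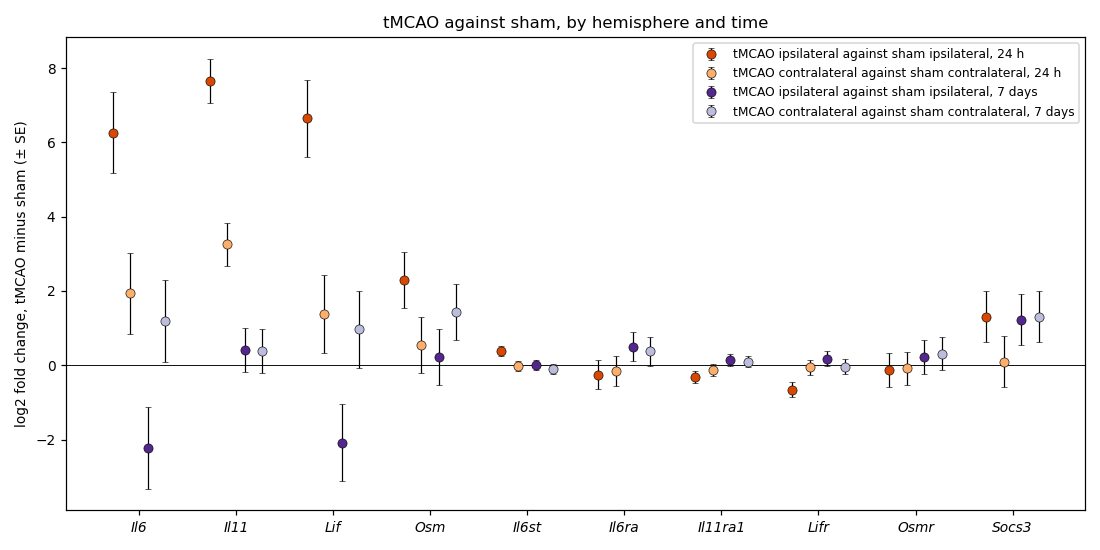
Log2 fold change (tMCAO minus sham) ± SE of each member in both hemispheres and at both times, 3 against 3 libraries each. Il11, Il6 and Lif reach 7.66, 6.26 and 6.65 in the ipsilateral hemisphere at 24 h, and the contralateral Il11 difference is 3.25.

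At 7 days none of the 10 members was called in the ipsilateral hemisphere. By limma 0 of 10 passed against sham, and 0 of 10 had an unadjusted p under 0.05, while 13.2% of all genes were called, 3.27% higher and 9.95% lower. No member's groups were without overlap, where 30% of all genes were. Il6 had 4, 1 and 0 normalized counts after tMCAO and 7, 1 and 63 after sham (log2 fold change -2.23 ± 1.09, adjusted p 0.182). Lif had 6, 2 and 3 against 24, 3 and 63 (-2.08 ± 1.04, adjusted p 0.189). The highest sham value of both genes came from the third sham pool, without which the log2 fold changes were -0.89 (adjusted p 0.638) and -1.19 (adjusted p 0.535). Without sham replicate 2 instead, Il6 was called lower, at -3.39. Il11 (0.42 ± 0.59) and Osm (0.22 ± 0.75) stood at 1.38 (adjusted p 0.0593) and 0.90 (adjusted p 0.494) without the third sham pool.

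Socs3 at 7 days had 2979, 1497 and 1592 normalized counts in the ipsilateral tMCAO libraries and 594, 365 and 2550 in sham. Its log2 fold change of 1.23 ± 0.69 did not pass (adjusted p 0.249 by limma), and the groups overlapped through the third sham library. Without both libraries of the third sham pool the log2 fold change was 2.04 and Socs3 was called (adjusted p 0.0297). Without the ipsilateral library of that pool alone it was 2.04 as well, with an adjusted p of 0.0462. Its contralateral values were 2537, 1101 and 846 against 464, 277 and 1212, a log2 fold change of 1.31 ± 0.69 (adjusted p 0.544) that became 1.89 (adjusted p 0.254) without the pool.

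The receptor genes were close to sham at 7 days. The ipsilateral log2 fold changes were 0.01 ± 0.13 for Il6st (95% interval -0.26 to 0.29), 0.14 ± 0.16 for Il11ra1 and 0.17 ± 0.20 for Lifr. Il6ra and Osmr had 0.50 ± 0.40 and 0.23 ± 0.45, which became 0.77 and 0.74 without the third sham pool, with adjusted p of 0.188 and 0.191. In the contralateral hemisphere at 7 days 0 of 10 members were called by limma and 0 of 10 had an unadjusted p under 0.05, with 0.0313% of all genes called. Wide intervals, such as -0.71 to 1.16 for the ipsilateral Osmr difference, leave room for changes of up to the size of the 1.5-fold limit and beyond.

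Between the hemispheres of tMCAO mice at 7 days, 0 of 10 members passed by limma, 1 had an unadjusted p under 0.05 and 13% of all genes were called. That member was Il6st, with 12727, 11169 and 9538 normalized counts ipsilaterally and 9777, 8793 and 7560 contralaterally (log2 difference 0.35 ± 0.13, adjusted p 0.0804). By number, its contralateral values were 76.8%, 78.7% and 79.3% of the ipsilateral ones. The difference lay below the 1.5-fold limit, so it could not be called. The fit did not pair libraries of the same number. With the replicate block, which does, no member was called either. In a test of whether the hemispheres differed more after tMCAO than after sham at 7 days (the interaction of surgery and hemisphere), 0 of 10 members passed by limma, 1 (Il6) had an unadjusted p under 0.05 and 9.84% of all genes were called. The interaction of Il6 was -3.42 ± 1.55 (adjusted p 0.206) and became -2.42 (adjusted p 0.517) without the third sham pool; that of Lif went from -3.06 to -2.09.

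Comparisons among sham libraries are between groups without occlusion, although the filament had been inserted on the ipsilateral side. An effect of that insertion was not tested apart. Between sham hemispheres, limma called 0 of 10 members at 24 h and 0 of 10 at 7 days. Of these members 0 and 3 had an unadjusted p under 0.05, and 0% of all genes were called at either time, with 367 and 359 at an unadjusted p under 0.05. The 3 members were Il6, Lif and Osm, each higher ipsilaterally at 7 days (log2 differences 3 ± 1.09, 2.49 ± 1.04 and 1.77 ± 0.75). Without the third sham pool those differences were 2, 1.53 and 1.5. Between 7 days and 24 h, 0 of 10 members were called in the ipsilateral (1 at an unadjusted p under 0.05) and 0 of 10 in the contralateral sham hemispheres (0 at an unadjusted p under 0.05), with 0.476% and 0.332% of all genes called. Without the third sham pool the ipsilateral differences between the times went from -0.89 to -1.71 for Socs3 and from -0.51 to -1.47 for Il11, and no member was called in these comparisons.

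**Figure D3:**
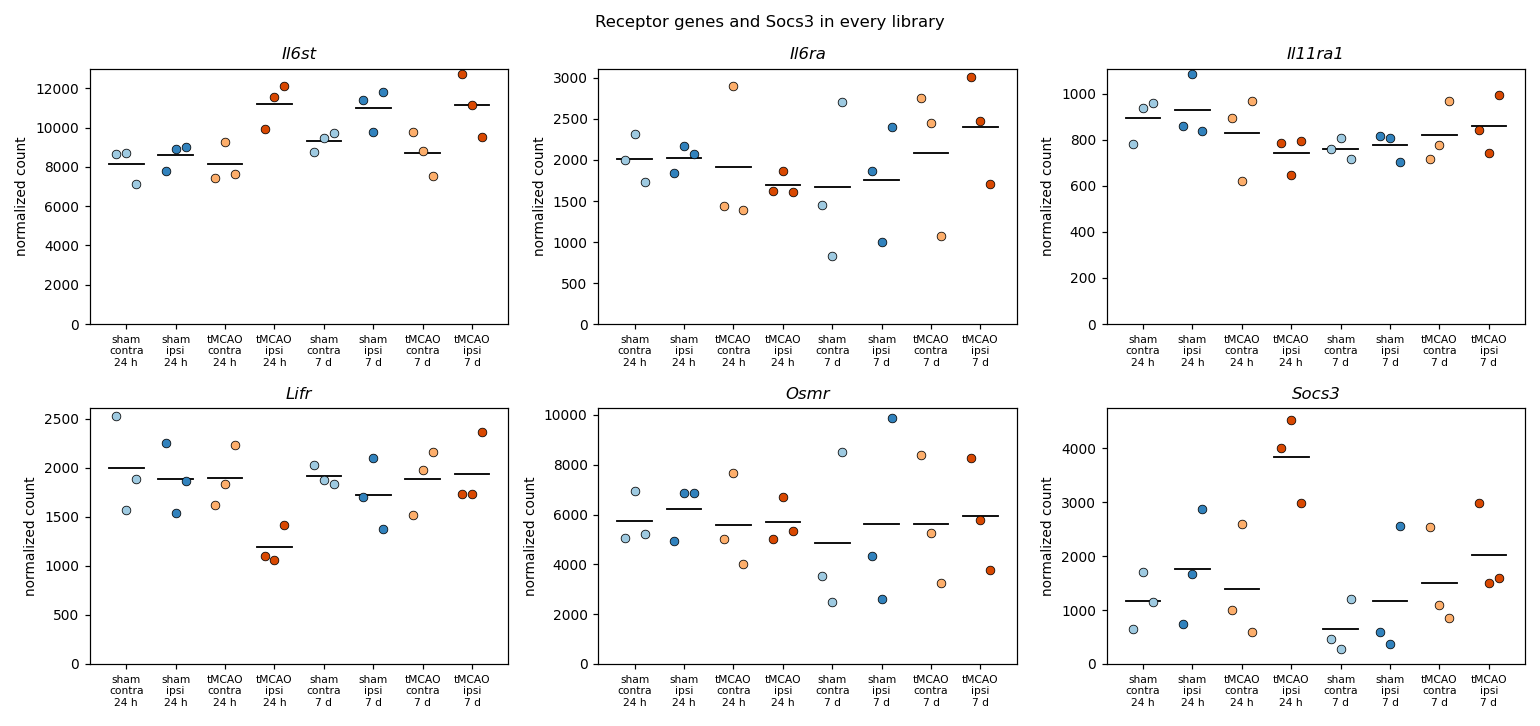
Normalized counts (linear axes from 0) of the 5 receptor genes and Socs3 in all 24 libraries by group; points are libraries in the order of their replicate numbers and bars are means. Lifr has its lowest group mean and Socs3 its highest values in the ipsilateral hemispheres 24 h after tMCAO. The highest Lifr library there (1412) lies above an ipsilateral sham library of 7 days (1377). Osmr and Il6ra spread widely within groups of 7 days.

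Receptor levels outside the acute ipsilateral libraries were steady for some genes and spread for others. Over the other 21 libraries the highest value was 1.75 times the lowest for Il11ra1 (620 to 1085 normalized counts), 1.79 times for Il6st (7125 to 12727) and 1.84 times for Lifr (1377 to 2530). It was 3.61 times for Il6ra (833 to 3006), 3.96 times for Osmr (2498 to 9890) and 10.8 times for Socs3 (277 to 2979). Per kilobase of exon sequence the group means ran from 732 to 1011 normalized counts for Il6st, from 400.04 to 514 for Osmr, from 193 to 277 for Il6ra, from 166 to 207 for Il11ra1 and from 110 to 185 for Lifr. Il6st was thus the highest receptor gene in every group and Osmr the next by group mean, while the group means of Il6ra, Il11ra1 and Lifr lay within each other's ranges in part.

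Within groups, several receptor genes and Socs3 deviated alike in libraries of the same number. Deviations from the group means agreed between the hemispheres of the same number at r = 0.94 for Osmr, 0.89 for Il6ra and 0.79 for Socs3 (12 pairs of libraries, log2 values, given as a description). It was 0.73 for Lifr and 0.70 for Il11ra1, 0.40 for Osm, 0.38 for Il6st, 0.26 for Il6, 0.03 for Lif and -0.09 for Il11. A different measure, the correlation across all genes within a single pair, was 0.145 to 0.467 after sham and 0.0593 to 0.360 after tMCAO. It gives no background for the values of single genes over the pairs, and no such background is given here. Among sham pools of 7 days, Osmr had 3515, 2498 and 8524 normalized counts contralaterally and 4350, 2622 and 9890 ipsilaterally, the third pool being highest on both sides. Il6ra followed with 1455, 833 and 2713 contralaterally and 1863, 998 and 2407 ipsilaterally.

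**Figure D4:**
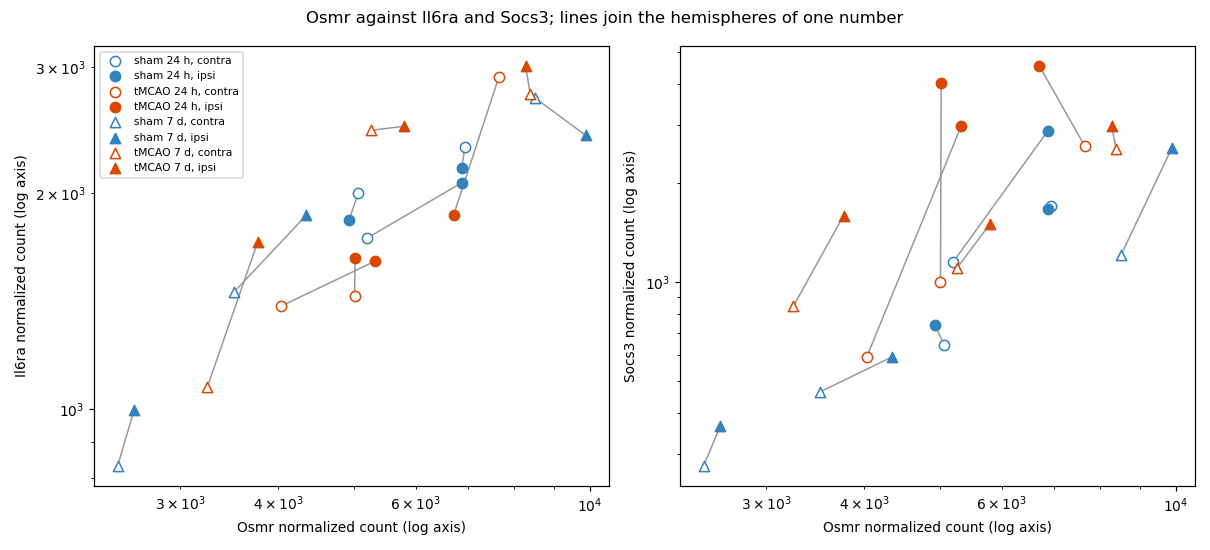
Normalized counts of Osmr (x, log axis) against Il6ra and Socs3 (y, log axes) in 24 libraries; open symbols are contralateral, filled symbols ipsilateral, and lines join libraries of the same number, surgery and time. Osmr and Il6ra rise together over all groups (r = 0.90), and Socs3 of the ipsilateral libraries of 24 h after tMCAO (2989 to 4526) lies above the rest.

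Osmr and Il6ra correlated at r = 0.90 over the 24 libraries and at 0.92 in deviations from the group means, and Osmr and Socs3 at 0.90 in such deviations. These libraries share normalization and, within a number, possibly their mice, so the values are descriptions. Sums of neutrophil and astrocyte markers correlated with some of these members. They are picked from a longer set of marker lists, and other lists correlated with other members. Il11ra1, for example, correlated with microglia markers at 0.79 and with fibroblast markers at 0.75 in deviations from the group means. No share over all genes is given for such correlations. The summed level of the 7 neutrophil markers correlated with Socs3 at r = 0.80, with Osmr at 0.80, with Osm at 0.67 and with Lifr at -0.82 in deviations from the group means (24 libraries). It was 153, 253 and 1615 normalized counts in the ipsilateral sham pools of 7 days, the third pool being highest here too. The summed level of the 6 astrocyte markers correlated in the same way with Il6 at 0.66, with Socs3 at 0.65 and with Osmr at 0.56. It was 14395, 13404 and 28990 normalized counts in those ipsilateral pools. In the contralateral libraries of the same pools it was 11951, 12576 and 13293, where Osmr had 3515, 2498 and 8524. The part of either cell type was not tested.

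Neutrophil markers and monocyte and macrophage markers also summed higher in the ipsilateral hemisphere 24 h after tMCAO than in sham. Neutrophil markers summed to between 2398 and 5535 normalized counts in the ipsilateral tMCAO libraries of 24 h and to between 175 and 1046 in sham, and 5 of the 5 tested neutrophil markers were called higher. Over all genes, 10% were called higher and 8.23% lower in this comparison. Ly6g was at 0 in 2 libraries of all 24 and Camp in 13, and no other neutrophil marker was at 0. Monocyte and macrophage markers summed to between 7712 and 15952 against 5023 to 7688, with 4 of 7 called higher. T cell markers were near the floor, at sums of 50 to 67 against 29 to 40. Only 1 of the 5 was tested, and 0 were called. Endothelial markers summed to between 231056 and 253146 against 263627 to 307291, with 2 of 7 called lower, and mural markers to between 77836 and 137784 against 138846 to 163231, with 2 of 8 called lower. Neuron markers summed to between 2113 and 2838 against 4559 to 5126, with 3 of 6 called lower. Astrocyte markers (9978 to 15398 against 14706 to 22424, 3 of 6 called lower) and oligodendrocyte markers (18998 to 46213 against 32845 to 62936, 2 of 5 called lower) overlapped in their sums. The part of these cells in the cytokine values was not tested. At 7 days the neutrophil markers summed to between 671 and 4511 in ipsilateral tMCAO libraries and between 153 and 1615 in sham. Of these markers 0 of 5 were called, where 13.2% of all genes were. The tMCAO sums of 7 days were 4511, 2399 and 671 and overlapped those of 24 h, while Il11 had 16, 10 and 10 normalized counts in the same libraries.

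Genes whose log2 values were most like those of a member over the 24 libraries were found by Pearson's r across all tested genes. For Il6 they were Rdh10 (0.94), Sgpl1 (0.94) and Lif (0.93), and for Lif they were Il6 (0.93), Nop56 (0.92) and Odc1 (0.92). Il11 was most like Tnc (0.95), which encodes the matrix protein tenascin C, Apln (0.94), the gene of the vascular peptide apelin, and Hmox1 (0.94), the heme oxygenase induced by stress. Osm was most like Cebpb (0.91), Rnd1 (0.91) and the chemokine receptor gene Ccr1 (0.90). Osmr was most like Ddi2 (0.93), Bcl6 (0.91) and Il6ra (0.90), and Socs3 was most like the immediate early gene Junb (0.96), Il4ra (0.95) and Cebpb (0.94). For the 4 cytokines these values rest largely on the 3 ipsilateral tMCAO libraries of 24 h: without these, Il6 and Lif correlated at 0.79 and Il6 and Il11 at 0.64.

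Among other ligands and receptors of the family, Clcf1, Il27ra and Cntfr differed from sham. Of 12 genes listed, 7 were tested, and in the ipsilateral hemisphere at 24 h 2 were called higher and 1 lower, where 10% of all genes were called higher and 8.23% lower (median log2 fold change 0.48, against -0.02 over all genes). Clcf1, a ligand of the CNTF receptor, had 66 to 99 normalized counts against 28 to 36 (log2 fold change 1.39 ± 0.27, adjusted p 0.000955 by limma). Il27ra, the receptor chain for IL-27, had 194 to 246 against 105 to 180 (0.84 ± 0.25, adjusted p 0.0185). Cntfr, the binding chain for CNTF, had 193 to 213 against 309 to 438 (-0.84 ± 0.30, adjusted p 0.0400). Il27ra was not called without sham replicate 1 (0.70), sham replicate 3 (0.71) or tMCAO replicate 2 (0.77). Cntfr was not called without sham replicate 1 or 3 or any one of the tMCAO libraries (-0.88 to -0.70).

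At 7 days 1 of the 7 was called higher and 1 lower, where 3.27% of all genes were called higher and 9.95% lower, with a median log2 fold change of -0.52 against 0.02 over all genes. Cntfr was at 86 to 150 normalized counts against 300 to 587 (log2 fold change -1.87 ± 0.30, adjusted p 0.000192 by limma), the larger of its differences at the 2 times, a contrast that was not tested. Il27ra was at 147 to 225 against 96 to 124 (0.76 ± 0.25, adjusted p 0.0449). Il27ra was not called without any one of the sham libraries, without tMCAO replicate 1 or 2 (0.60 to 0.87) or with only the compared groups in the fit.

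The 28 genes of the signalling machinery (Janus kinases, STATs, adaptors, phosphatases and inhibitors) were nearly all below the limit. At 24 h 2 were called higher and none lower, where 18.3% of all genes were called in either direction, with a median log2 fold change of 0.05 against -0.02 over all genes. They were Ptpn6, a phosphatase of blood cells, at 281 to 377 against 86 to 169 normalized counts (1.47 ± 0.21, adjusted p 4.99e-05 by limma), and Socs1, an inhibitor related to Socs3, at 60 to 89 against 36 to 53 (0.81 ± 0.26, adjusted p 0.0228). At 7 days Jak3 (0.97 ± 0.17, adjusted p 0.000374) and Ptpn6 (0.93 ± 0.21, adjusted p 0.00414) were called higher, and none was called lower, where 13.2% of all genes were called. Socs1 was not called without sham replicate 1 or 2 or tMCAO replicate 1 or 2 (0.68 to 0.80). With no limit on the fold change, 8 of the 28 passed at 24 h.

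Of 29 genes known as targets of STAT3, 26 were tested, and 7 were called higher and none lower at 24 h in the ipsilateral hemisphere against sham, where 10% of all genes were called higher and 8.23% lower. The median log2 fold change was 0.71, against -0.02 over all genes. The largest changes were those of acute phase genes and of a protease inhibitor: Saa3 rose from 8 to 25 normalized counts to 648 to 847 (5.43 ± 0.71, adjusted p 1.91e-05 by limma). Hp, the gene of haptoglobin, rose from 14 to 71 to 369 to 831 (3.76 ± 0.74, adjusted p 0.00093), and Timp1 from 61 to 164 to 971 to 1595 (3.47 ± 0.67, adjusted p 0.000765). Cebpb, Icam1, Ccnd1 and Vim were also called, and were named after their values had been seen.

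At 7 days 4 of the 26 were called higher and 1 lower, where 3.27% of all genes were called higher and 9.95% lower (median log2 fold change 0.81, against 0.02 over all genes). Lrg1, a secreted protein of endothelium and neutrophils, was at 10590 to 25182 normalized counts against 584 to 5949 (2.85 ± 0.75, adjusted p 0.0117 by limma). Icam1, the leukocyte adhesion molecule, was at 3345 to 4118 against 1095 to 1788 (1.38 ± 0.17, adjusted p 1.64e-05). Birc5, a gene of dividing cells, was at 24 to 37 against 5 to 8 (2.05 ± 0.57, adjusted p 0.0165), and Vegfa fell from 171 to 280 to 65 to 102 (-1.47 ± 0.34, adjusted p 0.00526). Lrg1 was not called without sham replicate 2 (1.88) or tMCAO replicate 1 (2.53) or with only the compared groups in the fit (adjusted p 0.0532 by limma), nor Birc5 without sham replicate 3 (1.85) or tMCAO replicate 1 (1.93). Without both libraries of the third sham pool, 12 of the list were called at 7 days, and without single libraries 2 to 8 were. Calls over all genes moved too, between 1460 and 2700 over the alternatives, so nothing is read from these counts.

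**Figure D5:**
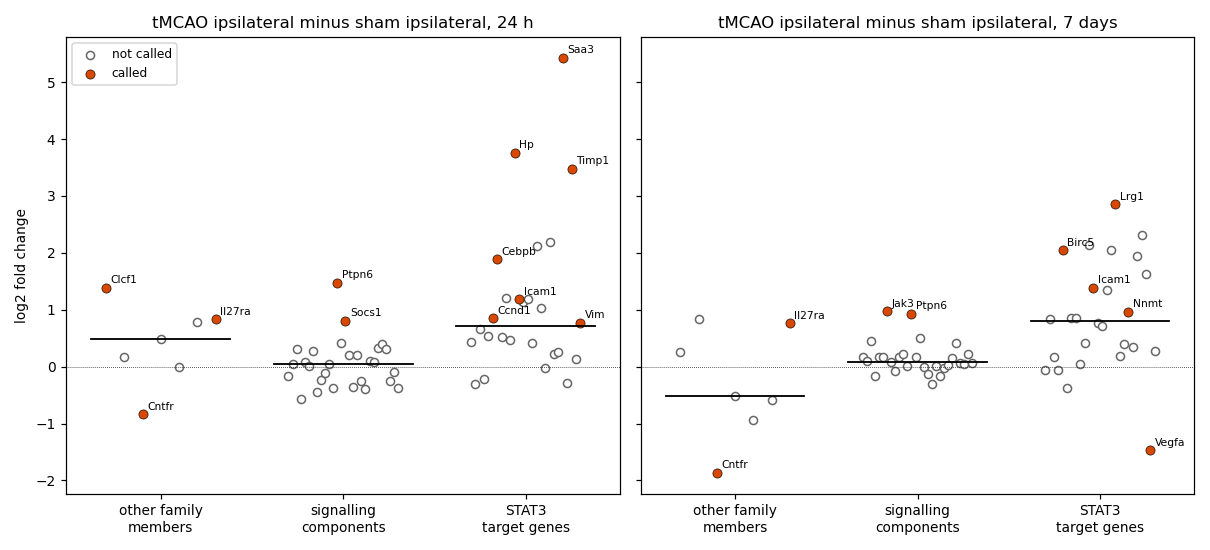
Log2 fold change (ipsilateral tMCAO minus sham) at 24 h and 7 days of each tested gene of 3 lists: 7 other family members, 28 signalling components and 26 STAT3 target genes; filled points were called and bars are list medians. Saa3 (5.43), Hp (3.76) and Timp1 (3.47) are farthest from 0 at 24 h and Lrg1 (2.85) at 7 days.

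In the genome (mm10, coordinates of the deposited table) the cytokine genes Lif (chr11:4257557-4272514) and Osm (chr11:4236420-4241026) are neighbours on the plus strand, 16530 bases apart. The receptor genes Lifr (chr15:7129559-7197489, plus strand) and Osmr (chr15:6813577-6874969, minus strand) lie 254589 bases apart. Each pair differed in its values: Lif had 324 to 755 and Osm 28 to 45 normalized counts in the acute ipsilateral libraries, and Lifr was lower there while Osmr overlapped with sham. Exons of Il6ra overlap those of Gm42809, and exons of Il11ra1 those of Ccl27a, both on the opposite strand. The library kit kept strand, but the strand setting of the counting is not given in the sources used here, so the values of these 2 receptor genes are uncertain to that extent. Il11ra1 also has near-identical gene copies, and reads that matched several genes were excluded, which lowers the certainty of its level.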

How the data were processed

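The deposited values are a score: the authors aligned reads to mm10 with STAR, normalized the counts per gene with DESeq2 and rounded them to whole numbers. Per the submitters' processing notes, STAR 2.5.2b, featureCounts 1.5.1 and DESeq2 1.6.2 were used on libraries of a stranded mRNA kit. The rule that left 17270 genes is not given in the sources used here. Values are relative to the 24 libraries, so no counting interval is given; totals per library limit the precision of low genes.

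The 15982 genes whose mean exceeded 5 were tested on log2(value + 1) in limma 3.58.1 (R 4.3.3), in 1 fit of the 8 groups with a trend of the variance. This fit did not pair the hemispheres of the same number. P-values were Benjamini-Hochberg adjusted over these genes. A gene was called at an adjusted p under 0.05 and a change above 1.5-fold. No count model was run, because the values are not whole reads. Fold changes on this scale understate changes of low genes. Calls were tested on simulated data. Descriptions and figures used Python 3.11.15, numpy 2.4.6, pandas 2.3.3 and matplotlib 3.10.9. Exon lengths came from GENCODE (GRCm38) and promoter windows from RefSeq (GRCm38.p6).

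The members and lists were chosen with earlier results of these data known. Named were the 10 members, up to 3 called genes in each direction per list and comparison, all called genes of the other family members, and the 3 genes most correlated with 6 of the members. Alternatives were a pseudocount of 0.5, no filter, a minimum mean of 20, median centring, the replicate block, only the compared groups, no limit on the fold change and each library left out. Leaving out both libraries of the third sham pool of 7 days was chosen after seeing the data. Same-numbered hemispheres of sham mice deviated together (r = 0.145 to 0.410 at 24 h and 0.325 to 0.467 at 7 days), while pairs after tMCAO did so only in part (0.0658 to 0.360 and 0.0593 to 0.309). The labels do not state that a number marks the same mice.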

Additional observations from a re-analysis of the deposited data

How the results depend on the processing

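Leaving out 1 library in turn moved the following counts of calls, given as lowest to highest: members in the ipsilateral hemisphere against sham, 3 to 5 at 24 h and 0 to 1 at 7 days; other family members, 1 to 3 at 24 h and 1 to 2 at 7 days; signalling components at 24 h, 1 to 2; STAT3 targets at 7 days, 2 to 8. With only the compared groups in the fit, 12 instead of 7 STAT3 targets were called at 24 h, and at 7 days 3 instead of 5 STAT3 targets and 1 instead of 2 other family members. Without a limit on the fold change 8 instead of 2 signalling components passed at 24 h. Without both libraries of the third sham pool of 7 days, 1 instead of 0 members and 12 instead of 5 STAT3 targets were called at 7 days. The cause was not tested. Counts over all genes moved over the alternatives too, with the ranges given below, so nothing is read from the moved list counts.

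The replicate block used the number across surgeries and times, which does not pair the samples (r from -0.252 to 0.411), and the mouse pool between hemispheres. It moved the count of members called between the hemispheres of tMCAO mice at 24 h from 5 to 6 by adding Socs3, and changed no other call of a member. No called value changed sign. The sign turned for values that were not called and exceeded their standard error in one of the fits: Il11ra1 between times in the contralateral tMCAO hemisphere (-0.19 without contralateral replicate 2 of 24 h, the lowest, and 0.13 the highest over single libraries left out) and Il6 between times in the ipsilateral sham hemisphere (-1.25 without the third pool or without its ipsilateral library, and 1.25 the highest). Sign changes of values within their standard error were not counted. Over all genes, counts of calls ranged from 2069 to 4885 at 24 h (2919 in the report) and from 1460 to 2700 at 7 days (2114), ipsilateral against sham, from 1612 to 3904 (2182) and 1187 to 2558 (2080) between tMCAO hemispheres, from 1136 to 3082 (1943), 0 to 89 (0), 19 to 127 (76) and 4 to 106 (53) between times in ipsilateral and contralateral tMCAO and ipsilateral and contralateral sham libraries, from 0 to 39 (5) contralaterally against sham at 7 days and from 882 to 1952 (1573) for the interaction. Under median centring the median log2 difference over all genes lay between -0.10 and 0.12 in each comparison.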
